A study of Mus musculus with 18 samples.

Results

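The stomatin genes Stoml3, Stom, Stoml1 and Stoml2 were followed in RNA-seq libraries of cells sorted from the mouse main olfactory epithelium (MOE), where the olfactory sensory neurons (OSNs) of the nose lie. They were taken by gene symbol and make up 4 of the 23359 symbols of the expression table, each with 1 row. Stoml3 was picked because its level was lower in reporter-positive neurons, in the same libraries that are described here. Its values are therefore a description and carry no test, while Stom, Stoml1 and Stoml2 were picked by name as its relatives.

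The 18 libraries come from 2 knock-in lines, labelled as strain C57BL/6, in which Cre is made from the transcript of a trace amine-associated receptor (TAAR) gene and turns on a fluorescent reporter. Mice of the genotype TAAR5-Cre&L10-GFP, at postnatal day 11 to 14, gave 7 libraries of GFP-positive cells (Taar5+ OSNs) and 9 of GFP-negative cells (control cells). Mice of the genotype TAAR6-Cre&ZsGreen, at postnatal day 16 to 17, gave 1 library of ZsGreen-positive cells (Taar6+) and 1 of ZsGreen-negative cells. Control cells carry the same Cre allele and reporter as the positive cells and are a mixture, mostly of OSNs that use an odorant receptor (OR), and a cell that once made the receptor can stay marked. Ages and strain are as labelled. The study's reporting summary gives older mice of a mixed background instead, so the age is uncertain. Line, reporter and age cannot be told apart between the lines, so the Taar6 line is given as values alone. No label says that replicates came from separate animals, so each p measures only the spread between these libraries.

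Stomatin proteins share a domain, called SPFH after stomatin, prohibitin, flotillin and the bacterial protein HflK/C, that lies against the inner face of a membrane and binds cholesterol-rich patches. Several of them bind ion channels, among them the acid-sensing ASIC channels and the stretch-gated Piezo channels, and change how these open. Stoml3 protein, first known as an olfactory stomatin, lies in the cilia of OSNs, the part of the neuron that meets odorants and holds the signalling cascade of Golf, adenylyl cyclase 3 and the cyclic nucleotide-gated channel. Stom is the founding member, an abundant protein of the red cell membrane that is also made in neurons. Stoml1 carries a sterol carrier domain beside the stomatin domain and lies on late endosomes, and Stoml2 sits in the inner mitochondrial membrane with the prohibitins.

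On GRCm38, in the GENCODE M21 annotation, Stoml3 (ENSMUSG00000027744.4) spans chr3:53488653-53508502 on the plus strand, with up to 7 exons. Stom (ENSMUSG00000026880.11) lies at chr2:35313986-35336976 on the minus strand, also with up to 7 exons. Stoml1 (ENSMUSG00000032333.6) occupies chr9:58253164-58262520 on the plus strand, with up to 8 exons, and Stoml2 (ENSMUSG00000028455.15) chr4:43027690-43031710 on the minus strand, with up to 10. Stoml2 overlaps Gm26643, a long non-coding RNA gene on the other strand that has no row in the table, and the other 3 genes overlap no annotated gene. How reads of overlapping or repeated sequence were counted is not given in the sources used here. Of all 50-base words in the transcripts, 5.19% of those of Stoml2 are shared with 1 other gene, the largest share of the set. What this does to its level is not known. In Stoml3 0.572% are shared, with 259 other genes, and in Stom and Stoml1 none are (0% each).

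The promoters of Stoml3 and Stom are shown because these are the most highly expressed stomatin genes in the sorted cells and differ in base composition. Both are RefSeq sequences (GRCm38.p6) from 250 bases before to 50 bases after the start that RefSeq gives for the gene, written 5′ to 3′ on the strand of the gene, and capitals mark each CG pair. They lie at chr3:53488457-53488756 (plus strand) and chr2:35336960-35337259 (minus strand).
Stoml3 promoter: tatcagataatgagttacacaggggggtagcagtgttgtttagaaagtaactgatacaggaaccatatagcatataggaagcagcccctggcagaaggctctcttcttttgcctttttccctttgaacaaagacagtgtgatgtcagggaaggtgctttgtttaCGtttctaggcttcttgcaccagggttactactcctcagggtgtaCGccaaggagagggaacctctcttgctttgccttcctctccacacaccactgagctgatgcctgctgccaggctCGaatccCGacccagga
Stom promoter: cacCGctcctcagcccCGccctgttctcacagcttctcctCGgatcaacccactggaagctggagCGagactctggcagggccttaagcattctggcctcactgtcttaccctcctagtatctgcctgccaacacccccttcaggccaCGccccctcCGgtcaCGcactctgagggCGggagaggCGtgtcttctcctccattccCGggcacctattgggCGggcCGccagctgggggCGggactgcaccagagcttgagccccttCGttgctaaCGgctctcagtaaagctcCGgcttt

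The Stoml3 promoter held 4 CG pairs and 49.3% G and C, below the median of 7 CG pairs and 52.7% over 32851 mouse promoters of the same length. In 31.4% of those promoters there were fewer CG pairs than in Stoml3. The other members had more, with 16 in Stom, 11 in Stoml1 and 24 in Stoml2, and 67.0%, 58.6% and 80.0% of all promoters held fewer than these. Homeobox factors act at many genes of OSNs, so promoters were searched for a core homeobox motif, TAATTA, which reads the same on both strands. It occurred in 0 of the 4 promoters and in 5.29% of all promoters. These are the letters of 1 window a gene, and nothing follows from them about any factor.

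Levels are in TPM (transcripts scaled to the same sum in each library), a length-corrected share of each library, so members can be set side by side. The sequencing depth behind a TPM value cannot be read from it, so depth is unknown. Genes above 0 numbered 9784 to 17653 in the Taar5+ libraries and 11259 to 16888 in the controls other than replicate 2, which had 5878. Control replicate 2 also held the lowest summed OR TPM of the controls (6174) and the highest summed sustentacular cell TPM (7065). Results are given with and without it where it matters. Markers of mature OSNs were abundant in every library, with summed TPM of 16415 to 27203 in Taar5+ and 6254 to 29610 in control cells, and all 9 markers were above 0 throughout the 16 libraries of the Taar5 line.

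The genes kept the order Stom, Stoml1, Stoml2 from high to low in all 18 libraries. Stoml3 was above Stom in 9 of 9 controls and in 6 of 7 Taar5+ libraries, the exception being replicate 7, and the ranges of both genes overlapped in Taar5+ OSNs but not in controls. Ranges of Stom and Stoml1 did not overlap in either group. Ranges of Stoml1 and Stoml2 did not overlap in Taar5+ OSNs, but did among the controls, through replicate 2 alone.

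**Figure D1:**
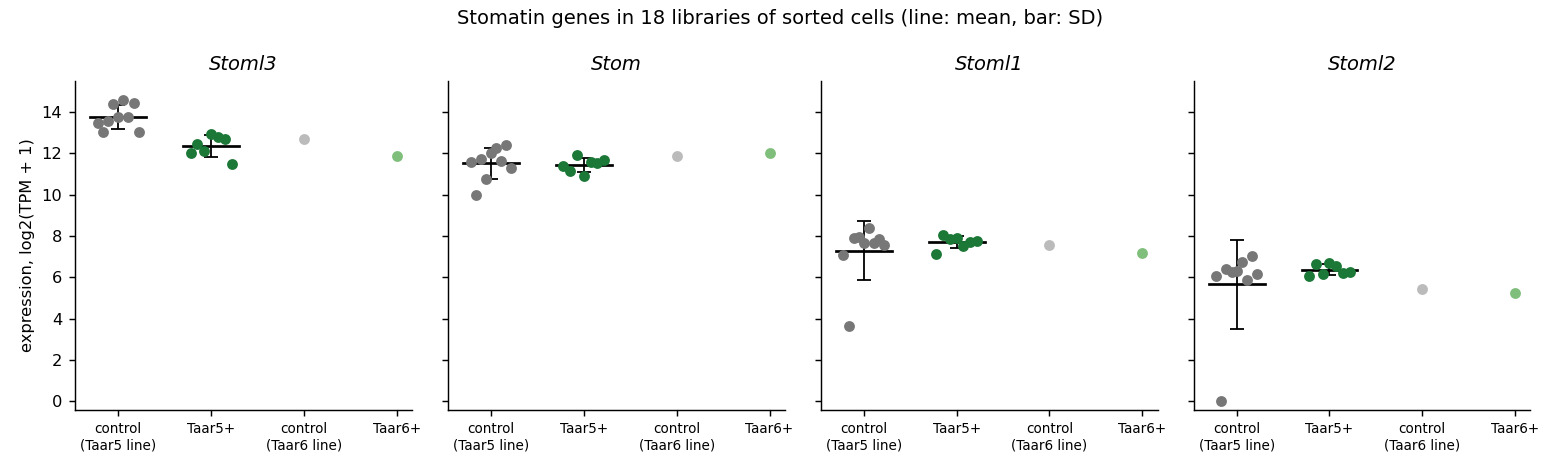
Each point is 1 library, with expression as log2(TPM + 1) on the vertical axis and the sorted group on the horizontal axis. Lines and bars are the mean and SD of the 9 control and 7 Taar5+ libraries, and the Taar6 line has 1 library a group. Stoml3 is the 1 gene whose Taar5+ points all lie below the controls, and the low points of Stoml1 and Stoml2 are control replicate 2.

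Stoml3 was among the most highly expressed genes of the control cells and was lower in each sorted Taar5+ library. In control cells it stood between 8364 and 24318 TPM, with a median of 13655 and a mean of 15101 ± 6089 (SD, n = 9). In Taar5+ OSNs it stood between 2900 and 7921 TPM, with a median of 5531 and a mean of 5510 ± 1795 (SD, n = 7). The highest Taar5+ library was thus below the lowest control, and replicate 7 was the lowest of all. The mean in Taar5+ OSNs was 36.5% of that in controls, or 2.74-fold lower, and on the log2(TPM + 1) scale the difference was -1.42 (SE 0.24). In a sorted population, fewer Stoml3-expressing cells and less Stoml3 RNA in each cell cannot be told apart.

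Stoml3 made up 0.836% to 2.43% of all TPM in the control libraries and 0.29% to 0.792% in the Taar5+ libraries. It ranked between 2 and 6 among all genes of a control library (median 4), and between 6 and 24 in a Taar5+ library (median 13). Of the 102 genes with a mean over 1000 TPM, a bound set after the values were seen, 0 had a lower log2 difference than Stoml3, and Stoml3 was the 1 gene among them with no overlap and lower values in Taar5+ OSNs. Among all 12502 genes tested, 687 had a more negative log2 difference. Stoml3 was chosen for its fall in these same libraries, so these places describe it and test nothing.

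In the Taar6 line, Stoml3 was at 3807 TPM in the Taar6+ library and 6573 TPM in its control. That is 1.73-fold lower, or -0.79 on the log2(TPM + 1) scale, with 1 library a group and no replicate check. The control of this line was below all 9 controls of the Taar5 line, and its Taar6+ library lay within the range of the Taar5+ libraries. Stoml3 ranked 5 in that control and 11 in the Taar6+ library.

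Stom, the next in level, had overlapping groups. It ran from 1004 to 5368 TPM in controls (median 3145, mean 3244 ± 1400 SD, n = 9) and from 1915 to 3834 TPM in Taar5+ OSNs (median 3001, mean 2864 ± 636 SD, n = 7). The Taar5+ range lay wholly inside the control range. The log2 difference was -0.06 (SE 0.27, 95% interval -0.63 to 0.51, adjusted p = 0.987, limma), and -0.25 without control replicate 2 (adjusted p = 0.765). Stom was at 4143 TPM in the Taar6+ library and 3726 TPM in its control, so the direction there was the opposite of that of Stoml3.

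Stoml1 was expressed at a middle level. Controls ran from 11.7 to 336 TPM (median 200.1, mean 198 ± 88.3 SD, n = 9), and without replicate 2, the lowest, from 136 TPM. Taar5+ OSNs ran from 140.3 to 269 TPM (median 213, mean 211 ± 41.3 SD, n = 7). Apart from that library the groups covered much the same range. The log2 difference of 0.40 (SE 0.49, 95% interval -0.62 to 1.42, adjusted p = 0.956, limma) became -0.05 without control replicate 2 (adjusted p = 0.961). In the Taar6 line, Stoml1 was at 145 TPM in the positive and 188 TPM in the control library.

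Stoml2, the mitochondrial member, was the lowest of the set. It was listed at 0 in control replicate 2, which in such a table can be a failed estimate, and ran from 57.7 to 131 TPM in the other 8 controls (mean 84.1 ± 23.7, SD, n = 8). Over all 9 controls the median was 75.3 TPM. Taar5+ OSNs ran from 65.1 to 101 TPM (median 76.9, mean 83.0 ± 14.7 SD, n = 7), inside the range of those 8 controls. The log2 difference of 0.71 (SE 0.73, 95% interval -0.82 to 2.25, adjusted p = 0.955, limma) came down to 0.0057 without control replicate 2 (adjusted p = 0.997). In the Taar6 line it was at 37.1 TPM in the positive library and 41.7 TPM in the control.

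Thus 0 of the 3 relatives chosen by name passed an adjusted p of 0.05, against 0.168% of all 12502 genes tested (21 genes, of which 18 were higher and 3 lower). At an unadjusted p under 0.05, 881 genes passed and again none of the 3 relatives (0 of 3). Stoml3 is among the 3 lower genes, but it was chosen on this contrast, so its place there is no test. The other lower genes were Nqo1 and Tmsb4x. Nqo1, a quinone reductase that marks the dorsal zone of the MOE, ran from 126 to 675 TPM in Taar5+ OSNs and from 479 to 1742 TPM in controls (log2 difference -2.48, adjusted p = 0.000312). Tmsb4x, which encodes the actin-binding thymosin beta 4, had a log2 difference of -0.58 (adjusted p = 0.0196). Groups that did not overlap, with all Taar5+ libraries below all controls, were found for 0.04% of tested genes (5 genes), of which 1 was Stoml3 by choice and 0 were its relatives.

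A ratio within a library does not depend on the total of that library. Stoml3 to Stom ran from 3.32 to 12.3 in controls (median 4.15) and from 0.895 to 4.14 in Taar5+ OSNs (median 2.19). These ranges overlapped because of Taar5+ replicate 4 alone. Control replicate 4 likewise had the highest ratio of the controls. In the Taar6 line the ratio was 1.76 in the control and 0.919 in the positive library.

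Stoml3 was also set against genes of the mature OSN. Omp encodes the olfactory marker protein of mature OSNs. The ratio of Stoml3 to Omp ran from 0.805 to 3.93 in controls (median 1.10) and from 0.185 to 0.921 in Taar5+ OSNs (median 0.316). Again the libraries numbered 4 were the highest of their groups, and without Taar5+ replicate 4 the ranges did not overlap. The log2 difference of this ratio was -1.80 (SE 0.40). Stom to Omp covered 0.202 to 0.328 in controls (mean 0.270 ± 0.0456 SD, n = 9) and 0.131 to 0.291 in Taar5+ OSNs (mean 0.202 ± 0.0499 SD, n = 7). Its ranges overlapped, with a mean 1.34-fold lower in Taar5+ OSNs and 3 of 7 libraries (0.131, 0.166 and 0.189) below all controls, and this difference was not tested.

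Against the subunits of the olfactory cyclic nucleotide-gated channel the groups stood apart. Stoml3 to Cnga2, the main subunit, was 7.69 to 14.5 in controls and 2.08 to 5.99 in Taar5+ OSNs. Stoml3 to Cnga4, a modulatory subunit, was 13.5 to 28.1 in controls, of which 28.1 was replicate 2 and the next highest 18.9, and 6.63 to 11.9 in Taar5+ OSNs. Neither pair of ranges overlapped. In the Taar6 line the ratio to Cnga2 was 5.15 in the control and 2.53 in the positive library, and that to Cnga4 was 10.7 and 7.61, with both libraries below all 9 controls of the Taar5 line.

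**Figure D2:**
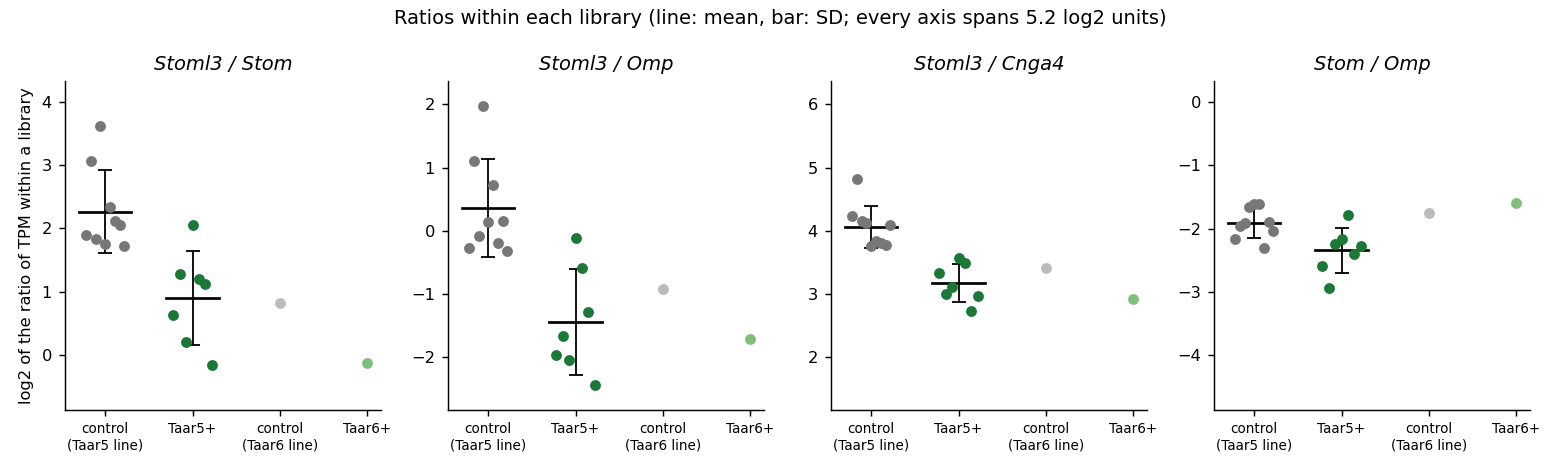
Each point is the log2 of a ratio of TPM within 1 library, by sorted group, with the mean and SD as lines and bars and the same span on every axis. Taar5+ points lie below the controls for Stoml3 to Cnga4, overlap for Stoml3 to Stom and Stoml3 to Omp through Taar5+ replicate 4, and overlap for Stom to Omp, with 3 of 7 Taar5+ points below all controls.

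Odorant receptors mark the OSNs that make up most of the controls. Summed OR TPM ran from 6174 to 20251 in controls and from 225 to 5525 in Taar5+ libraries, and the Taar5+ mean was 10.1% of the control mean, beside 36.5% for Stoml3. The ratio of Stoml3 to summed OR TPM was 0.621 to 1.39 in controls and 1.29 to 35.2 in Taar5+ OSNs. Among the 7 Taar5+ libraries, Stoml3 and summed OR TPM had a Pearson r of 0.07 and a Spearman rho of -0.14, and r was -0.26 without the 2 libraries farthest from the median OR level. The library with the least OR expression, replicate 4 at 225 TPM, had the highest Stoml3 of its group. Among the 9 controls r was 0.69 and rho 0.83, and r was 0.85 without the 2 farthest. These and the correlations that follow are descriptions over libraries that share the TPM scale.

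**Figure D3:**
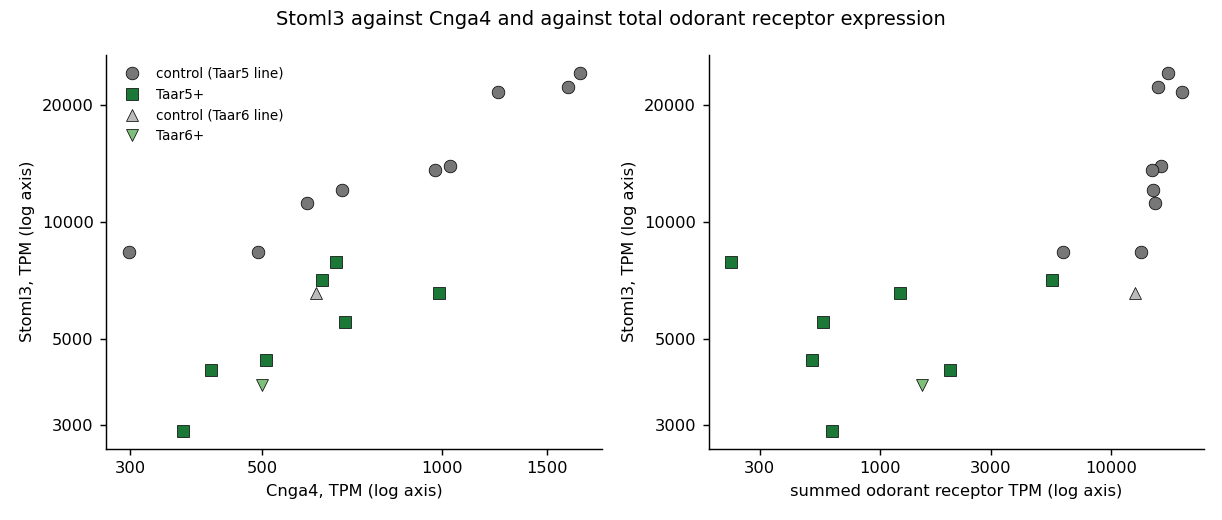
Stoml3 TPM is plotted against Cnga4 TPM (left) and against summed OR TPM (right), on log axes, with 1 point a library. Within each group Stoml3 was higher where Cnga4 was higher, with the Taar5+ libraries below controls of like Cnga4 level, and Taar5+ libraries spread over 225 to 5525 summed OR TPM with no matching order in Stoml3.

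Genes whose level over the libraries was most like that of Stoml3 were sought among the tested genes. Over the 16 libraries of the Taar5 line, and so with the group difference included, the highest Pearson r were those of Olfr124 (0.83), Olfr1212 (0.82), Mdga2 (0.82), Olfr976 (0.82) and Tmsb4x (0.81). Among these are 3 ORs, at most 1.75 TPM in any Taar5+ library. With deviations from the group means in place of levels, the highest were Hist1h2bg (0.91), Cmip (0.91), Cnga4 (0.90), Hist1h2bh (0.87) and Hist1h2bk (0.82). Cnga4 was among the nearest to Stoml3 within the groups, with r 0.95 and rho 0.98 in controls and r 0.81 and rho 0.71 in Taar5+ OSNs, and with r 0.95 and 0.81 without the 2 farthest libraries.

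Over both groups together, the relatives were less like Stoml3. By deviations from the group means, r with Stoml3 was 0.30 for Stom, 0.51 for Stoml1 and 0.48 for Stoml2, beside 0.70 for Cnga2 and 0.10 for Omp. The groups differed for Stom. In controls its r with Stoml3 was 0.55 and rho 0.68, and r was 0.94 without the 2 libraries farthest from the median Stom level. In Taar5+ OSNs these were -0.51, -0.50 and -0.15. For Omp, r was 0.37 in controls and 0.79 without the 2 farthest, and -0.65 and 0.24 in Taar5+ OSNs. Over the 16 libraries as they stand, r with Stoml3 was 0.22 for Stom, 0.14 for Stoml1 and 0.10 for Stoml2. The values for Stoml1 and Stoml2 include control replicate 2, where these genes were at 11.7 and 0 TPM, far below the other controls. Values of r without that library were not computed.

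The wider SPFH family also holds prohibitin, flotillin and erlin genes. Of its 9 tested genes other than Stoml3, 0 were called, beside 0.168% of all genes tested. Their log2 differences were below 0 for 6 and above 0 for 3. Their median was -0.22, beside 0.02 over all genes tested. Without control replicate 2 it was -0.11, beside -0.17 over all genes, and without Taar5+ replicate 4 it was 0.0068, beside 0.11. Flot2, a flotillin of lipid rafts, had the 1 unadjusted p under 0.05 (0.0466, adjusted p = 0.692, limma), a level that 881 of all 12502 genes passed. Its log2 difference was -0.66, with 37.6 to 187 TPM in Taar5+ OSNs and 96.8 to 302 TPM in controls. The prohibitin gene Phb2 was at 215 to 412 TPM in Taar5+ and 188 to 666 TPM in controls, a log2 difference of 0.0046.

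The second list held signalling genes of the olfactory cilium, where Stoml3 protein lies, and caveolins, which coat cholesterol-rich membrane. Of 10 genes, 8 were tested and 0 were called, beside 0.168% of all genes tested. At an unadjusted p under 0.05 there were 0, beside 881 of all 12502 genes tested. Their median log2 difference was 0.31, beside 0.02 over all genes. Without control replicate 2 it was 0.02, beside -0.17 over all genes. Adcy3, the adenylyl cyclase of the cilium, ran from 284 to 1612 TPM in Taar5+ OSNs and 202 to 1697 TPM in controls (log2 difference 0.38, adjusted p = 0.956, limma). Omp had a log2 difference of 0.38, Gnal of 0.24, Cngb1 of 0.38, Ano2 of 0.07 and Cnga2 of 0.01. Cnga4 alone was below 0, at -0.53 (SE 0.32, adjusted p = 0.868, limma), from 368 to 989 TPM in Taar5+ OSNs and 299 to 1704 TPM in controls. Cav3 was listed at 0 in all 18 libraries and Cav1 reached at most 4.09 TPM in the Taar5 line. Cav2 was tested, at 0 to 10.2 TPM in Taar5+ OSNs and 0 to 19.4 TPM in controls.

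Most of the channels that stomatin proteins are known to modulate were at or near 0. Of 7 Piezo and ASIC genes, 6 were below the filter, with no value over 1.12 TPM in the 16 libraries of the Taar5 line, and Asic5 was listed at 0 throughout. Asic1, a proton-gated channel, ran from 16.1 to 56.5 TPM in Taar5+ OSNs and from 0.0833 to 77.0 TPM in controls (log2 difference 0.68, adjusted p = 0.954, limma). Without control replicate 4 the difference was 0.11, and with the replicate number as a block 1.04. The 8 genes of the last list, mitochondrial partners of Stoml2, were all tested. Of these 0 were called, beside 0.168% of all genes tested, and 0 had an unadjusted p under 0.05, beside 881 of all 12502. Log2 differences were above 0 for 5 and below 0 for 3, with a median of 0.18, beside 0.02 over all genes. Without control replicate 2 that median was -0.12, beside -0.17 over all genes.

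**Figure D4:**
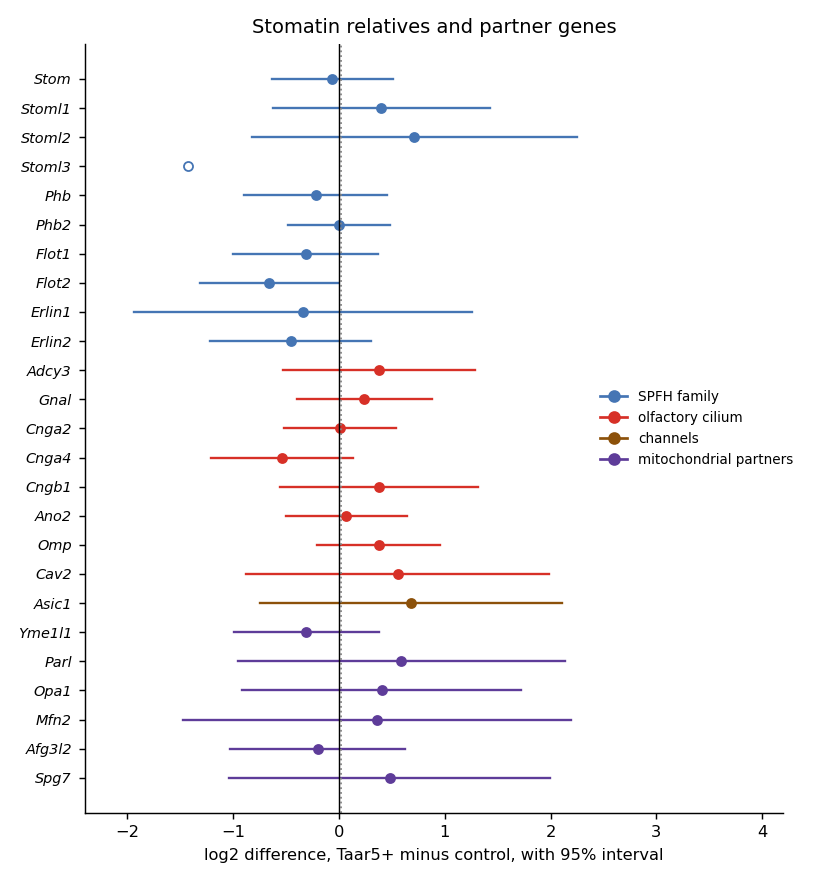
Points are log2 differences (Taar5+ minus control, log2(TPM + 1)) with 95% intervals from limma for the tested genes of the 4 lists, and the dotted line is the median of all genes tested, 0.02. Stoml3 is an open point with no interval because it was chosen on this contrast, at -1.42, and the intervals of all other genes but Flot2 reach across 0.

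The nearest genes on the chromosome were described next. Stoml3 lies between Proser1, which ends 6898 bases before it, and Frem2, which begins 5436 bases after it on the other strand. Frem2, an extracellular matrix protein gene, was low, at 0 to 2.81 TPM in Taar5+ OSNs and 0.487 to 7.23 TPM in controls (log2 difference -1.64, adjusted p = 0.205, limma). Proser1 was at 0 to 21.9 TPM in Taar5+ OSNs and 0 to 12.3 TPM in controls (log2 difference 0.42, adjusted p = 0.974, limma). Both were far below Stoml3 itself. Of the neighbours of all 4 members, 0 of those tested were called, beside 0.168% of all 12502 genes tested. At that share, 0 among so few genes says little about them.

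Markers of other cells of the MOE were lower in part of the Taar5+ libraries, and sustentacular markers were higher in others. The 4 microvillar cell markers summed to 0.266 to 181 TPM in Taar5+ and 13.2 to 612 TPM in control libraries, and 4 of 7 Taar5+ libraries were below all controls. For 5 ensheathing glia markers the sums were 0 to 103 TPM and 16.9 to 134 TPM, and 3 of 7 were below all controls. The 3 markers of horizontal basal cells summed to 0 to 181 TPM in Taar5+ (median 5.01) and 0 to 123 TPM in control libraries (median 98.0), a mean log2 difference of -2.58, with Krt5, Krt14 and Trp63 all listed at 0 in control replicate 2 and in Taar5+ replicates 2 and 6. Sums for 6 sustentacular cell markers were 138 to 12644 TPM (median 587) and 287 to 7065 TPM (median 1238), and 2 of 7 Taar5+ libraries were below all controls. Taar5+ replicates 1, 5 and 6 (3238, 12644 and 2704 TPM) were above control replicate 9 (1437 TPM), the highest control after replicate 2. The mean log2 difference of these markers was 0.05. The 6 immature neuron markers summed to 2351 to 4024 TPM (median 2966) and 1119 to 7061 TPM (median 4770.1), and the 6 progenitor markers to 56.1 to 242 TPM (median 81.0) and 46.2 to 260 TPM (median 167). For blood and immune cells, of which red cells are rich in Stom protein, 5 of 7 markers had rows and summed to 5.71 to 1444 TPM in Taar5+ (median 508) and 4.67 to 6209 TPM in control libraries (median 1014). Their part in the levels of the stomatin genes was not tested. Taar5+ replicate 5 had the highest sustentacular sum and the highest OR sum of its group. Without it and control replicate 2, the log2 difference was -1.59 for Stoml3 and -0.28 for Stom.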

How the data were processed

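RNA from cells sorted by fluorescence was made into 18 Smart-seq2 libraries, which hold full-length cDNA amplified from little RNA with no molecular identifiers. Per the submitters' processing notes, reads were trimmed with Trimmomatic 0.36, mapped to mm10 with HISAT2 2.1.0 and quantified with Cufflinks 2.2.1. The deposited values are TPM made by the authors, and the conversion to TPM, the annotation and the handling of strand are not given in the sources used here. The study's methods name DESeq2, a count model, which TPM do not allow.

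Rows of 1 symbol were summed (488 repeats). In control replicate 2 the Taar rows repeat the values of replicate 1 exactly (13 of 13 above 0, and 0 other genes), and were left out. Genes that reached 1 TPM in 7 or more of the 16 Taar5-line libraries were tested on log2(TPM + 1) with limma 3.58.1 in R 4.3.3 (eBayes with trend, two-sided, Benjamini-Hochberg over all tested genes, threshold 0.05). This scale understates the change of low genes. The fit was first tested on simulated data with known changes. Alternatives were a pseudocount of 0.1, no filter or 5 TPM, quantile normalization, TPM rescaled without receptor and Stoml3 rows, no trend, array weights, a replicate block, libraries left out and all 18 libraries. Positions came from GENCODE M21, with 92.9% of the symbols found, and tables were handled in Python 3.11.15 with pandas 2.3.3 and scipy 1.17.1.

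The members and gene lists were chosen with earlier results of these data known. Named were the members, all genes of the lists, the nearest genes on both sides, the 5 genes most like Stoml3 by each measure, and up to 3 called falls. Only values that describe a result are printed for the lists and neighbours. 1 gene of the lists is not reported here.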

Additional observations from a re-analysis of the deposited data

Results flagged for a closer look

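In 2 of the 12 groups of values checked for a sample far from the others, control replicate 2 stood apart. Chance alone gives about 0.6 in 12. The groups share their libraries and both flags fall on 1 library, so they are not separate events. Its Stoml1 level was 11.7 TPM, where the other 8 controls ran from 136 to 336 TPM, and its Stoml2 was listed at 0 TPM, where the other 8 ran from 57.7 to 131 TPM. The gap on the log2(TPM + 1) scale was 0.727 of the whole range of the group for Stoml1 and 0.834 for Stoml2, above the bound of 0.493 for 9 samples. The same library had the fewest genes above 0 (5878) and a Stoml3 level of 8400 TPM, the second lowest of the controls.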

How the results depend on the processing

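The difference in Stoml3 lay between -1.63 and -1.35 over the alternatives and between -1.52 and -1.28 with each library left out, and that of Stoml3 to Omp between -1.93 and -1.69 and between -2.02 and -1.60. Stom, Stoml1 and Stoml2 passed the threshold in none of these fits. Leaving out each library gave -0.25 to 0.049 for Stom, with values above 0 without control replicate 5 (0.0030), 6 (0.030) or 8 (0.049) or Taar5+ replicate 4 (0.031), -0.053 (without control replicate 2) to 0.54 for Stoml1, and 0.0057 to 0.89 for Stoml2. Array weights gave -0.015 for Stoml1 and -0.062 for Stoml2, and leaving out both control replicate 2 and Taar5+ replicate 5 gave -0.020 and -0.027. These fits moved the median of all genes to -0.16 and -0.22, and leaving out control replicate 2 alone moved it to -0.17, from 0.02. Over all genes, 21 were called, against 109 with quantile normalization, 1329 with array weights, 337 without both libraries and 16 to 148 with each left out (148 without control replicate 2 and 66 without Taar5+ replicate 5). The SPFH family count of 1 became 0 with no filter, 0 without a trend and 2 with array weights, and stayed 1 with each library left out. The count of 1 is Stoml3, which was chosen on this contrast, so it is no test of the family. Among its other genes 0 were called, and 1 with array weights (Erlin1), which also called 1 gene of the cilium list, Cnga4. Each library left out gave 0 genes of the other lists. Leaving out both libraries numbered 4, chosen after seeing the data, gave -1.44 for Stoml3. The cause of these changes was not tested.

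No label says that a number marks a shared animal or day. Correlations of deviations between same-numbered libraries were -0.01 to 0.28 and passed 0.1 in 5 of 7 pairs, not in all, and 3 of 7 Taar5+ libraries were nearest to the control of their own number, so whether the numbers pair the samples is not settled. With the number as a replicate block, 12 genes were called, Stoml3 differed by -1.43 (SE 0.16, against 0.24 without the block), Stoml3 to Omp by -1.93 (SE 0.24, against 0.40) and Stom by 0.035 (adjusted p = 0.957, limma). Depth is unknown, so counting error could not be weighed.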
